A study of Mus musculus with 27 samples.

Results

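The step from 120 to 240 min of refeeding was read from 6 of the 27 liver libraries of the series: the 3 of refed 240 min and the 3 of refed 120 min, taken by their column names. Poly(A) RNA of mouse liver had been sequenced with a stranded protocol, and each gene has a normalised, rounded read count per library. All mice were wild type (WT) of the strain labelled C57/BLN6 and had been fasted for 16 h. The refed 240 min and refed 120 min groups then had food for those times. Refed 30 min and refed 60 min livers (3 libraries each) are given as earlier means only. The caged food groups of 240 and 120 min (3 libraries each) had food placed so that it could be sensed and not eaten, and the fasted group (3 libraries) had none. Nothing in the labels says whether the libraries of a group came from separate animals, so that p-values measure the spread between libraries, while the design text calls the replicates biological.

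When a fasted animal eats, insulin rises and the liver turns from making glucose and burning fat to storing glucose and making fat. At the same time it raises the output of secreted proteins, which are made on the endoplasmic reticulum (ER), folded there by chaperones and carried to the Golgi in vesicles with a COPII coat, while COPI vesicles carry escaped ER proteins back. Fasting also drives autophagy, the digestion of cell contents in lysosomes, which insulin and amino acids restrain through the kinase complex mTORC1. The comparison asks which liver transcripts still change late in the meal response, after the first 120 min.

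The total of the values was 40654573 to 42968567 in the 6 libraries (40654573 to 50037562 over all 27), and the spacing of the lowest values put the reads at an estimated 28.9 to 52.5 M per library. Refed 240 min replicate 3 had the fewest reads of the 6, and it is also a library whose labels disagree. Its title and column say refed and its treatment label says caged food. Caged food 240 min replicate 1 has the opposite conflict. Over the 300 genes with the largest difference of refed 120 min from caged food 120 min livers, refed 240 min replicate 3 lay nearer the other refed 240 min libraries in 234 genes (78%), and caged food 240 min replicate 1 lay nearer the other caged food 240 min libraries in 248 (82.67%). Both were grouped by title. The number of genes called and the counts of the secretory lists are given with and without refed 240 min replicate 3. Among genes named, Atp2b2, Clk1, Cyp2c38, Cyp2c69, E2f8, Fads1, Fads2, Lgals4, Por, Rptor and Srsf7 lost the refed step call without it. The differences of Fasn and Focad from the caged food step were lost too. Of 10 pancreatic acinar markers, Cela1 made up most of the sum, which was 475, 455 and 393 in the refed 240 min libraries, against 464, 493 and 324 in the refed 120 min libraries. The other 9 markers summed to 85, 4 and 13 in refed 240 min livers and 93, 7 and 11 in refed 120 min livers, so replicate 1 of both groups held traces of them (Ctrb1, the precursor of chymotrypsin, at 25, 1 and 3 against 37, 0 and 1). Without these 2 libraries 46 genes were called between refed 240 and refed 120 min, and the part of this RNA was not tested. Hepatocyte markers (Alb, Apob and 6 others) summed to 4083823 to 5049796 in refed 240 min livers and 4488276 to 5018402 in refed 120 min livers, which is the tissue the labels name.

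Of 15932 genes with a value of 10 or more in at least 3 of the 27 libraries, 281 (1.76%) passed the test between refed 240 and refed 120 min (limma on log2(value + 1), Benjamini-Hochberg adjusted p under 0.05). Of these, 137 (0.86%) rose and 144 (0.904%) fell. Most changes were small: the median log2 fold change was 0.50 among the genes that rose and -0.53 among those that fell, and 16 rose and 19 fell by a log2 of 1 or more. Over all genes tested the median was -0.00257 (2402 genes at an unadjusted p under 0.05). The 3 libraries of one time all lay beyond the 3 of the other in 131 of the genes that rose and in 143 of those that fell, which was the case for 20.5% of all genes tested. The number of genes called depended on the libraries: it was 355 without refed 240 min replicate 3 (214 rose and 141 fell), 132 without replicate 2 and 92 without replicate 1 of that group, and 121, 200 and 97 without replicate 1, 2 or 3 of refed 120 min. Of 85 called genes that are followed here, 17 were called in every fit without 1 of the 6 libraries: Ablim1, Calcoco1, Cbx7, Csad, Cyp26a1, Fam134b, Fam65b, Fbxo32, Focad, Nbas, Ptk2, Ror1, Shroom3, Snd1, Tmtc2, Tox and Wnk4. The other 68 lost the call in at least 1 such fit. With refed 240 min replicate 3 and caged food 240 min replicate 1 grouped by the treatment label, 16 genes were called. When only the 6 libraries entered the fit, 60 genes were called, of which 73.3% rose, against 48.8% in the fit over all groups.

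**Figure D1:**
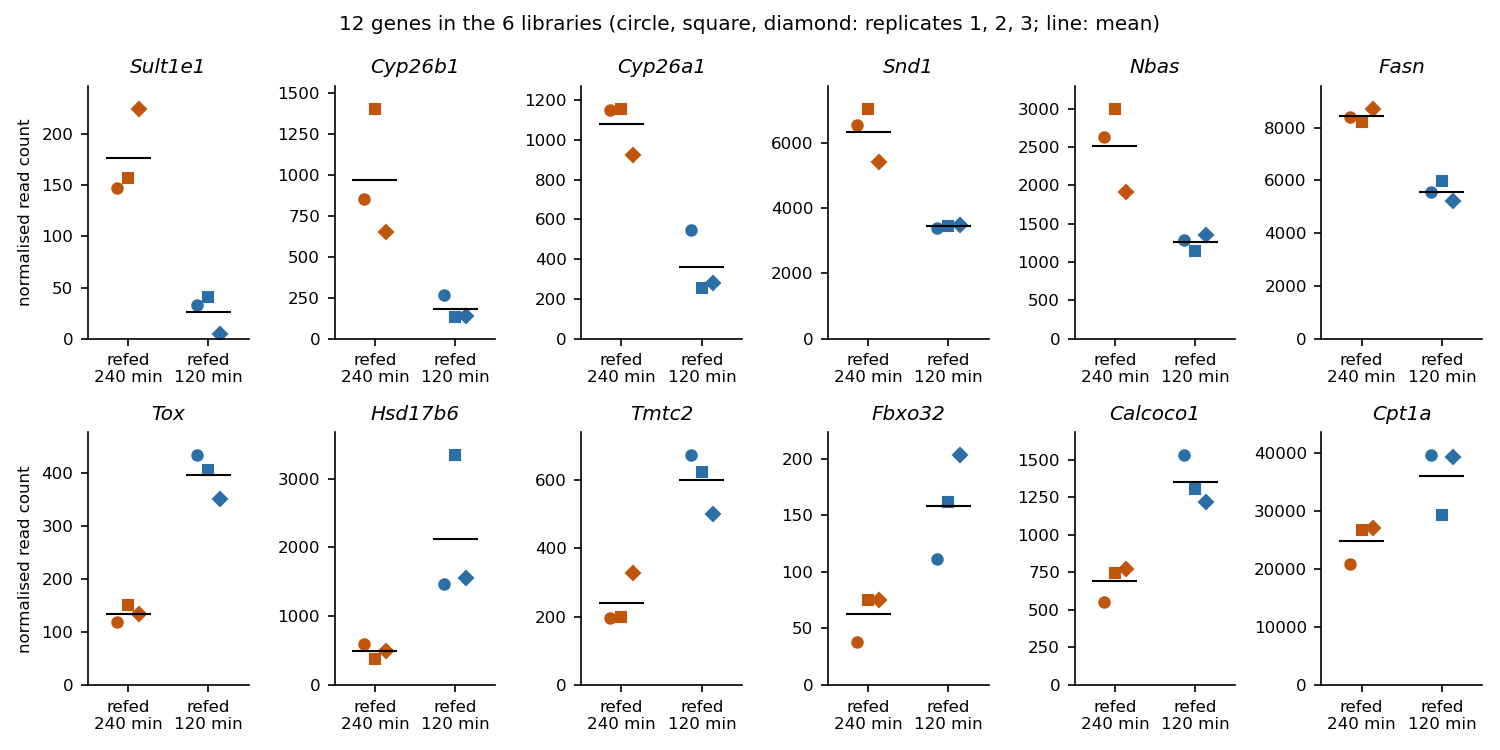
Normalised read counts of 12 genes in the 6 libraries, with refed 240 min on the left and refed 120 min on the right of each panel; symbols mark the replicate and the line the mean of 3 libraries, on linear axes from 0. The upper 6 genes are higher in each refed 240 min library than in any refed 120 min library (Cyp26a1 at 925 to 1157 against 257 to 545), and the lower 6 are lower in each (Tox at 119 to 151 against 351 to 434).

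The largest rises included enzymes that break down or inactivate small signalling molecules. Cyp26a1 and Cyp26b1, the hydroxylases that degrade retinoic acid, both rose, as did Sult1e1, the sulfotransferase that inactivates oestrogens. Adh4, an alcohol dehydrogenase that can oxidise retinol, rose as well but was not among the 10 largest rises. Of 31 genes of retinoid metabolism tested, 3 rose and none fell, with a list median of 0.03 (10 were higher and 5 lower at an unadjusted p under 0.05). That list was put together after the values had been seen. Among all genes tested, 0.86% rose, and 7.86% were higher and 7.21% lower at an unadjusted p under 0.05.

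Cyp26a1 (ENSMUSG00000024987, chr19:37697798-37701536, plus strand, GRCm38) is a textbook target of the retinoic acid receptor, which binds direct repeats of a hexamer, and its promoter is shown because it holds such a repeat beside the start. The 250 bases before its RefSeq start (GRCm38.p6, chr19:37697558-37697807, plus strand) are printed with the repeat in capitals.
Cyp26a1: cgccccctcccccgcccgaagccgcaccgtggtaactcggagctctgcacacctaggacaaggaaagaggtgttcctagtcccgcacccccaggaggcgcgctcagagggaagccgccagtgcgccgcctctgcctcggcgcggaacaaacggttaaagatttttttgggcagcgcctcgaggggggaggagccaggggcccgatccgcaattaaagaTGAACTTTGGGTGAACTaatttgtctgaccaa
The search was for any pair of the hexamers AGGTCA or AGTTCA or GGGTCA or GGTTCA in the same direction with 5 bases between, on either strand. The match read on the minus strand and began 32 bases before the start. Such a repeat was present in 29 of 32851 mouse promoters of the same length (0.0883%) and in 6 of 11172 of genes tested (0.0537%). It was in 1 of 106 promoters of genes that rose and in 0 of 108 of genes that fell. The 1 is Cyp26a1 itself, which was shown for its repeat, so that count adds nothing to the choice. A match of letters is not shown to be a bound site here.

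Cyp26a1 had 1154, 1157 and 925 normalised counts in the refed 240 min libraries, against 545, 257 and 282 in the refed 120 min libraries. The groups did not overlap, and the log2 fold change was 1.65 ± 0.31 (SE, adjusted p = 0.00698). Its earlier means were 364 in fasted, 302 in refed 30 min and 348 in refed 60 min livers, all near the level at 120 min. Cyp26b1 (ENSMUSG00000063415) had 853, 1403 and 653 counts at refed 240 min, against 269, 129 and 137 at refed 120 min. Its log2 fold change was 2.45 ± 0.50 (adjusted p = 0.0123), with every refed 240 min library above every refed 120 min library. Here the earlier levels were higher than at 120 min: Cyp26b1 averaged 563 in fasted livers, 394 at 30 min and 266 at 60 min of refeeding. The third family member, Cyp26c1, was low and did not pass, at 43, 35 and 43 counts in refed 240 min livers and 23, 20 and 14 in refed 120 min livers (adjusted p = 0.122). Adh4 stood at 7614, 9484 and 6615 in refed 240 min livers, against 4665, 5044 and 4991 in refed 120 min livers (log2 fold change 0.67 ± 0.16, adjusted p = 0.0254). Adh4 passed in 1 of the 6 fits that left out 1 library, with an adjusted p of 0.134 without refed 240 min replicate 2, and Cyp26b1 missed the threshold without replicate 2 or 3 of refed 120 min or replicate 2 of refed 240 min (adjusted p = 0.0501, 0.0642 and 0.0682).

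Sult1e1 (ENSMUSG00000029272, chr5:87575969-87591594, minus strand) had the largest rise among the genes named by size of change, which average 50 or more in whichever group was higher. Its counts were 148, 157 and 225 in refed 240 min livers, against 33, 41 and 4 in refed 120 min livers (log2 fold change 3.18 ± 0.64, adjusted p = 0.0112). The lowest value was that of refed 120 min replicate 3, and without that library the adjusted p was 0.0677. Of 9 sulfotransferase genes tested, a family chosen after the values had been seen, Sult1e1 rose and Sult1a1, the main phenol sulfotransferase of liver, fell. Among all genes tested, 0.86% rose and 0.904% fell. Sult1a1 had 14015, 10408 and 12813 counts at refed 240 min and 17825, 17638 and 15712 at refed 120 min (log2 fold change -0.47 ± 0.11, adjusted p = 0.0299). It passed in 2 of the 6 fits without 1 library (highest adjusted p = 0.168).

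The other large rises were of mixed function. Myom3, a protein of the muscle M-band, had 225, 158 and 472 counts in refed 240 min livers and 77, 67 and 47 in refed 120 min livers (2.02 ± 0.40, adjusted p = 0.0112). Slc41a2, a magnesium transporter, had 1772, 3698 and 1779 against 790, 814 and 627 (1.62 ± 0.40, adjusted p = 0.0341), with replicate 2 of refed 240 min far above the rest. Fam65b, a protein that binds the GTPase RhoA, had 245, 387 and 351 against 121, 96 and 141 (1.44 ± 0.27, adjusted p = 0.00689). The groups of all 3 genes were apart. Celsr1, a cadherin of planar cell polarity, rose by a log2 of 1.16 ± 0.22 (adjusted p = 0.00876), Atp2b2, a plasma membrane calcium pump, by 1.09 ± 0.27 (adjusted p = 0.0353) and Lingo4 by 1.35 ± 0.27 (adjusted p = 0.012). Gstm3, a glutathione transferase induced by the factor NRF2, had 894, 813 and 597 counts in refed 240 min livers, against 388, 302 and 387 in refed 120 min livers (1.08 ± 0.25, adjusted p = 0.0228). It has close paralogs between which reads may be split, and it was the only one of 14 NRF2 targets tested that passed, which it did in 1 of the 6 fits without 1 library. Of the 10 largest rises, Cyp26a1 and Fam65b were called in each fit that left out 1 of the 6 libraries. Atp2b2 was called in 0 of those 6 fits.

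Some genes of the early secretory pathway rose. Of 33 genes of ER translocation and COPII export tested, 4 rose and none fell: Sec23b, Sec24d and Sec31a, which are subunits of the inner and outer COPII coat, and Ssr1, a subunit of the translocon-associated complex. The list median was 0.17, and 17 members were higher and none lower at an unadjusted p under 0.05. Over all genes tested, 0.86% rose, and 7.86% were higher and 7.21% lower at that unadjusted p. Of 51 genes of cargo receptors, ER retrieval and COPI, a list put together after the values had been seen, 8 rose and none fell (median 0.11). Without refed 240 min replicate 3, 13 of the 33 and 16 of the 51 genes rose. Without replicate 1 of refed 240 min the counts were 0 and 1, and without replicate 3 of refed 120 min 0 and 1. They were also 0 and 1 without the 2 libraries with pancreas transcripts, and when only the groups compared were fitted. In that fit without refed 240 min replicate 3, 1.34% of all genes tested rose.

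Sec31a, an outer coat subunit, had 11426, 10898 and 10472 counts in refed 240 min livers, against 8913, 8827 and 8514 in refed 120 min livers (0.32 ± 0.07, adjusted p = 0.0121). The counts of Sec23b, an inner coat subunit, were 4724, 4955 and 3804 in refed 240 min livers, against 2712, 3868 and 3058 in refed 120 min livers (0.49 ± 0.11, adjusted p = 0.0191). For Sec23b the lowest refed 240 min library, replicate 3, lay just below the highest refed 120 min library, so these groups touched. Sec24d, the cargo-binding coat subunit, had 6551, 7539 and 5199 against 4837, 4835 and 4508 (0.43 ± 0.10, adjusted p = 0.0281), and Ssr1 had 7729, 8173 and 6494 against 4994, 6526 and 5371 (0.41 ± 0.10, adjusted p = 0.0284). In the 6 fits without 1 library Sec31a passed in 4, Sec23b and Ssr1 in 2 each and Sec24d in 1.

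Among the cargo receptors, Lman1, which carries clotting factors from the ER, had 19234, 17629 and 16910 counts in refed 240 min livers and 11981, 15319 and 13275 in refed 120 min livers (0.41 ± 0.08, adjusted p = 0.0123). Its relative Lman2 had 19224, 19688 and 16942 against 13492, 15804 and 14762 (0.34 ± 0.08, adjusted p = 0.019). Kdelr2, a receptor that returns chaperones to the ER, had 5464, 5916 and 4577 against 3921, 4325 and 4095 (0.36 ± 0.08, adjusted p = 0.0191). In all 3 the refed 240 min libraries lay above the refed 120 min ones. Nbas, a part of the tether for COPI vesicles at the ER (ENSMUSG00000020576, chr12:13269133-13583811, plus strand), moved most in this list. It had 2635, 2999 and 1910 counts at refed 240 min, against 1293, 1137 and 1358 at refed 120 min (0.97 ± 0.12, adjusted p = 7.22e-05), and its earlier means were 1376 in fasted, 1305 in refed 30 min and 1244 in refed 60 min livers. Golim4, Trappc4, Uggt1, the sensor of misfolded glycoproteins, and Serp1, which protects ER proteins from degradation, rose by 0.33 to 0.48 on the log2 scale.

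Snd1 had the lowest p among the genes that rose. It encodes a nuclease with staphylococcal nuclease-like and Tudor domains that takes part in RNA processing (ENSMUSG00000001424, chr6:28475139-28935162, plus strand). Its counts were 6551, 7043 and 5426 in refed 240 min livers, against 3389, 3455 and 3482 in refed 120 min livers, with a log2 fold change of 0.87 ± 0.10 (adjusted p = 5.75e-05). It passed under each of the 15 alternatives tried. Lrrc59, a ribosome-binding protein of the ER membrane, had 8492, 9537 and 6435 against 5543, 5110 and 5614 (0.57 ± 0.14, adjusted p = 0.0389). Lrrc59 passed in 1 of the 6 fits without 1 library, and missed the threshold under quantile normalization and with no filter. The promoters of Sec24d, Lrrc59 and Snd1 are shown because each holds TGACGTG, the core of the element read by the ER stress factors XBP1 and ATF6. They are the 250 bases before the RefSeq start (GRCm38.p6), at chr3:123267246-123267495, chr11:94629527-94629776 and chr6:28480098-28480347, all on the plus strand, with the match in capitals.
Sec24d: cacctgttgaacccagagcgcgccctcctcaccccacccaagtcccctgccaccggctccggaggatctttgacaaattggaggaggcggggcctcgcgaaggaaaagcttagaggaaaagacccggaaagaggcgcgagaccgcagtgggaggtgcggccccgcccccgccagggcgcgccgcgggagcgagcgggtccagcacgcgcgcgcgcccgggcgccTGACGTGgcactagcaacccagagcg
Lrrc59: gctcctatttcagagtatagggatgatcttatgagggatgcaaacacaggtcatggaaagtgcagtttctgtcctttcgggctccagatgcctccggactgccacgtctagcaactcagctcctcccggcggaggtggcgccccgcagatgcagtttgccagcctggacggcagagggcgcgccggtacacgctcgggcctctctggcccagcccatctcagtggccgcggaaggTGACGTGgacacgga
Snd1: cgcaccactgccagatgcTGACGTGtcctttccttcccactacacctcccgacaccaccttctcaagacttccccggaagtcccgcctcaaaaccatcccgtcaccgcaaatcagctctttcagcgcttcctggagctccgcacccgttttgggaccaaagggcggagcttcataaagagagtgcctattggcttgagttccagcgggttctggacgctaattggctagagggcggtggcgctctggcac
The match began 26, 15 and 232 bases before the start in that order. TGACGTG on either strand was present in 1.65% of all 32851 promoters, in 2.58% of those of genes tested, in 4 of 106 promoters of genes that rose (3.77%) and in 3 of 108 of genes that fell (2.78%). The full ER stress element, searched as CCAAT and after 9 further bases CCACG on either strand, was in none of the promoters of either set and in 0.113% of all promoters.

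The ER chaperones themselves did not pass, with 0 of 26 chaperones and folding factors called. Of the 26, 22 were higher at 240 min, 15 of them at an unadjusted p under 0.05, and the list median was 0.35. At that unadjusted p, 7.86% of all genes tested were higher. Hspa5, the main ER chaperone BiP, had 149335, 147147 and 76420 counts in refed 240 min livers, against 76275, 106102 and 86744 in refed 120 min livers (0.42 ± 0.22, adjusted p = 0.385). Hsp90b1 had 93728, 101259 and 43339 against 46216, 55527 and 51023 (adjusted p = 0.277), and Sdf2l1, a partner of BiP, had 6228, 7252 and 2627 against 2493, 4556 and 3789 (adjusted p = 0.584). In each of the 3 genes, refed 240 min replicates 1 and 2 lay above all refed 120 min libraries and replicate 3 lay within or below them. Without that library, 10 of 26 rose and the list median was 0.52, where 1.34% of all genes tested rose. Without both libraries of conflicting labels 8 of 26 rose. Without the 2 libraries with pancreas transcripts 0 of 26 rose and the list median was 0.19. The members of lowest p over all libraries were Erp44, with 3955, 3884 and 3201 counts against 2699, 3258 and 2807 (adjusted p = 0.052), Txndc5 (adjusted p = 0.0655) and Ppib (adjusted p = 0.0934). Other lists of this kind gave few calls or none. Of 20 aminoacyl-tRNA synthetases 1 rose, Aars, the alanyl enzyme, with 17136, 16555 and 14885 counts in refed 240 min livers and 12712, 11740 and 12340 in refed 120 min livers (0.40 ± 0.09, adjusted p = 0.0284), while 19 of the 20 were higher and the list median was 0.19. At an unadjusted p under 0.05, 9 of them were higher and 0 lower, where 7.86% of all genes were higher. Aars passed in 1 of the 6 fits without 1 library and missed the threshold under quantile normalization and with no filter. None of 18 genes of ER-associated degradation, 15 sensors and factors of the unfolded protein response, 19 cytosolic heat shock proteins or 34 genes of ribosome biogenesis was called (2 higher and 0 lower, 3 and 1, 1 and 0, and 1 and 4 at an unadjusted p under 0.05, in that order).

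**Figure D2:**
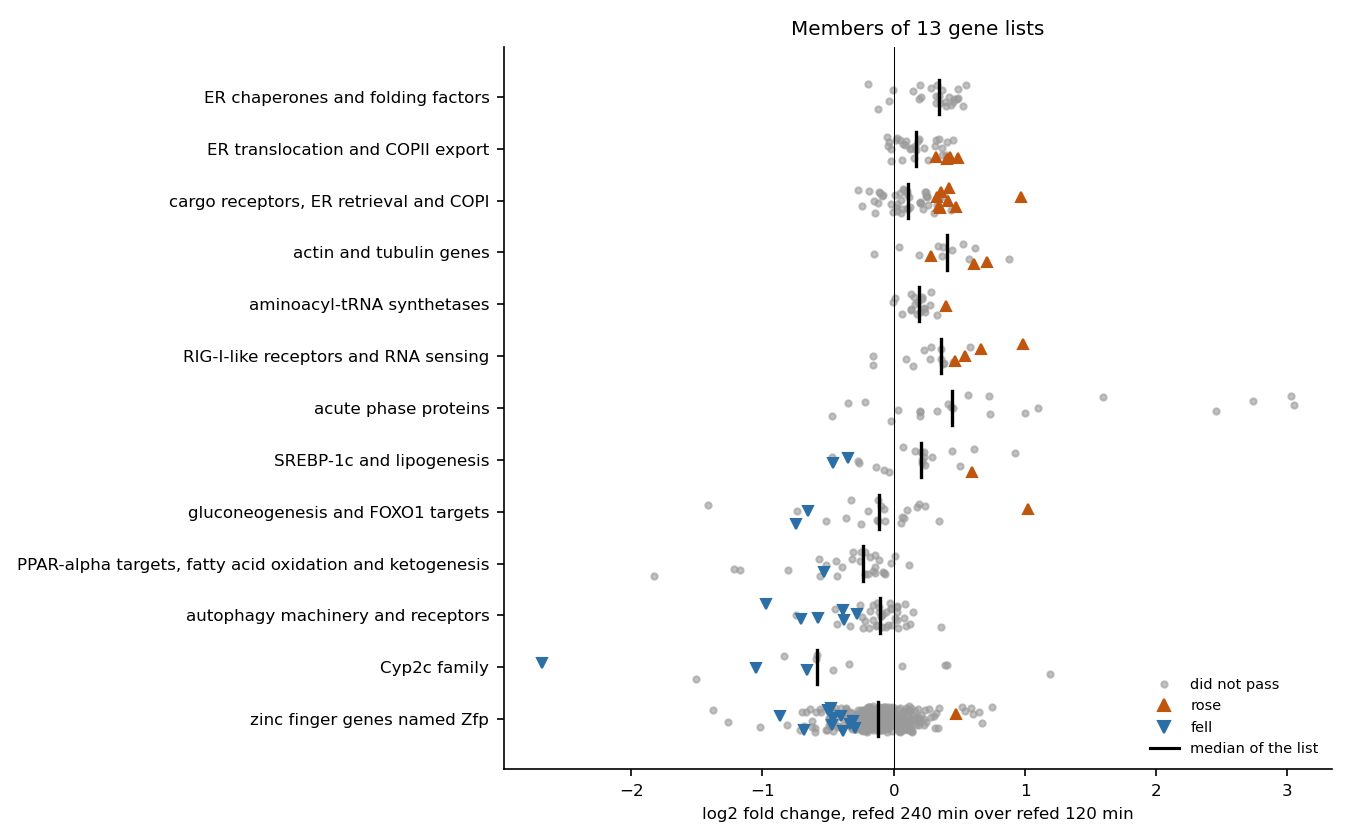
Log2 fold changes, refed 240 min over refed 120 min, of the members of 13 gene lists, 1 symbol a gene; orange triangles rose, blue triangles fell, grey points did not pass, and the black bar is the list median. COPII and cargo receptor genes that rose lie at 0.32 to 0.97, 22 of the 26 ER chaperones lie to the right of 0 with none called, and 11 Zfp genes fell with a list median of -0.12.

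Of 14 actin and tubulin genes tested, a family chosen after the values had been seen, 3 rose and 0 fell (median 0.41), where 0.86% of all genes rose. The count was 0 without replicate 1 or 2 of refed 240 min, 1 without replicate 2 or 3 of refed 120 min and 1 when only the groups compared were fitted. Actb, cytoplasmic beta-actin, had 33447, 26814 and 20366 counts in refed 240 min livers, against 20185, 15718 and 16183 in refed 120 min livers (0.61 ± 0.14, adjusted p = 0.0265). Tuba1c, an alpha-tubulin, had 1820, 1678 and 1434 against 1089, 1023 and 895 (0.71 ± 0.15, adjusted p = 0.0138). The groups were apart in both, by a narrow margin in Actb. Tubg1, the gamma-tubulin that seeds microtubules, rose by 0.29 ± 0.07 (adjusted p = 0.0299).

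Genes of lipid and glucose metabolism gave single calls in both directions. Fasn, the fatty acid synthase, rose, while Fads1 and Fads2, the desaturases that make polyunsaturated fatty acids, fell. Cpt1a, which gates the entry of fatty acids into mitochondria for oxidation, fell. Pck1, the enzyme that commits carbon to glucose synthesis, rose. Of 22 lipogenic genes tested 1 rose and 2 fell (median 0.21), of 30 targets of the fasting receptor PPAR-alpha 0 rose and 1 fell (median -0.24, with 2 of 30 higher), and of 24 genes of gluconeogenesis and FOXO1 targets 1 rose and 2 fell (median -0.11).

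Fasn (ENSMUSG00000025153, chr11:120805846-120824547, minus strand) had 8384, 8205 and 8705 counts in refed 240 min livers, against 5542, 5977 and 5196 in refed 120 min livers. The gap between the groups was wider than the range within either, and the log2 fold change was 0.60 ± 0.12 (adjusted p = 0.0121). Its earlier means were 3332 in fasted livers, 3850 at 30 min and 4681 at 60 min. Without refed 120 min replicate 3 the adjusted p was 0.0656. Fads1 had 9801, 9168 and 9240 against 11360, 12219 and 12278 (-0.35 ± 0.09, adjusted p = 0.0394). Fads2 had 10663, 10967 and 10687 against 14715, 13504 and 16476 (-0.46 ± 0.12, adjusted p = 0.0394). Neither pair of groups overlapped, but Fads1 passed in 0 and Fads2 in 1 of the 6 fits without 1 library (highest adjusted p = 0.145 and 0.182), and both calls were lost with no filter on low values and when only the groups compared were fitted. Acly, which makes cytosolic acetyl-CoA for fatty acid synthesis, had 8424, 6968 and 9974 against 5134, 6981 and 5681 and did not pass (adjusted p = 0.0783), and neither did Srebf1, the gene of the lipogenic factor SREBP-1c, at 4380, 2795 and 4730 against 1748, 5370 and 1716 (adjusted p = 0.422).

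Cpt1a stood at 20894, 26737 and 27013 counts in refed 240 min livers, against 39590, 29242 and 39377 in refed 120 min livers (-0.53 ± 0.12, adjusted p = 0.0173), below the fasted mean of 53487. Pck1 had 37730, 114098 and 51801 in refed 240 min livers, against 42331, 26914 and 23431 in refed 120 min livers (1.02 ± 0.26, adjusted p = 0.0477). The groups overlapped, replicate 2 of refed 240 min being far above the rest, and both stayed far below the fasted mean of 309630. Without refed 240 min replicate 2 the adjusted p of Pck1 was 0.238, and without replicate 1 of that group that of Cpt1a was 0.129. G6pc, the last enzyme of glucose release, did not pass, at 1215, 2316 and 2539 against 2248, 1385 and 1393 (adjusted p = 0.766). Got1, a transaminase of the cytosol, had 11199, 8567 and 17911 against 24008, 18517 and 18258 (-0.75 ± 0.18, adjusted p = 0.0296), and Cited2, a coregulator that promotes gluconeogenesis, had 719, 671 and 832 against 1032, 1277 and 1190 (-0.65 ± 0.17, adjusted p = 0.0478). Of 25 genes of insulin signalling 1 passed: Rptor, the subunit that recruits substrates to mTORC1, rose, with 3407, 3186 and 3215 counts against 2768, 2377 and 2603 (0.34 ± 0.09, adjusted p = 0.0387), and passed in 0 of the 6 fits without 1 library (highest adjusted p = 0.158). In those fits Got1 passed in 2 and Cited2 in 1 (highest adjusted p = 0.176 and 0.162). Of the 44 genes of a panel of ER, metabolic and clock genes, these 3 passed: Fasn and Pck1 rose and Cpt1a fell.

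**Figure D3:**
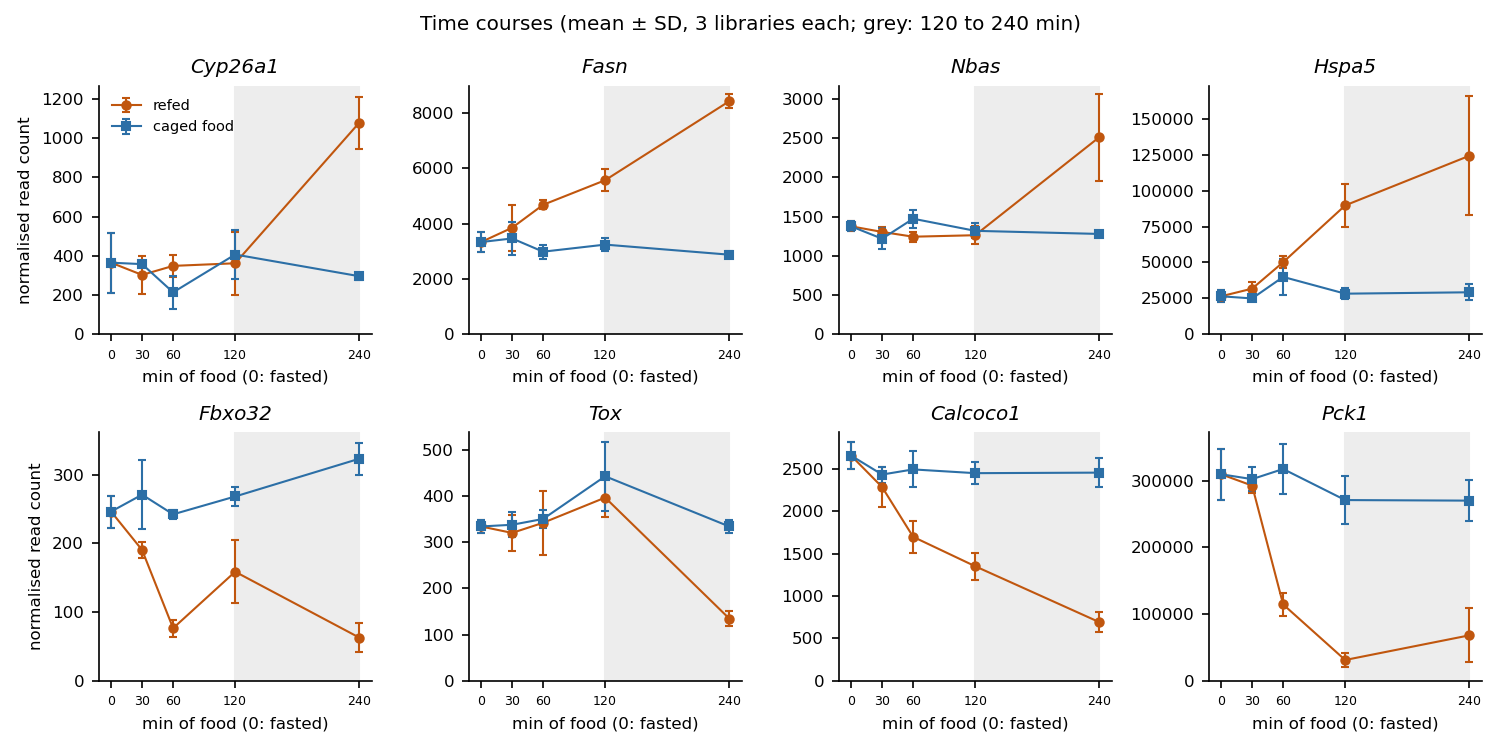
Mean ± SD of the normalised read counts of 8 genes (3 libraries each) against minutes of food, for refed and caged food livers, with the fasted group at 0 and the interval from 120 to 240 min shaded. Cyp26a1, Nbas and Tox stay close to their fasted level until 120 min and move within the shaded interval of refed livers, whereas Fasn and Calcoco1 continue a change that was already under way and Pck1 turns upward from its low at 120 min.

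The largest falls were of mixed function. Tox, an HMG-box factor known from T cell development, had the lowest p of all genes that fell (ENSMUSG00000041272, chr4:6686353-6991557, minus strand). Its counts were 119, 151 and 134 in refed 240 min livers, against 434, 407 and 351 in refed 120 min livers. The groups were far apart (-1.56 ± 0.14, adjusted p = 1.45e-06), and the earlier means were 335 in fasted, 321 at 30 min and 343 at 60 min. Fbxo32, the ubiquitin ligase subunit atrogin-1 known from muscle wasting and the FOXO programme, had 38, 75 and 75 against 111, 162 and 203 (-1.35 ± 0.21, adjusted p = 0.002). Tmtc2, an ER membrane protein that attaches mannose to cadherins, had 197, 198 and 327 against 672, 624 and 501 (-1.34 ± 0.17, adjusted p = 0.000165). Wnk4, a kinase that controls salt transporters, had 55, 68 and 59 against 180, 188 and 107 (-1.33 ± 0.21, adjusted p = 0.002). In these genes every refed 240 min library lay below every refed 120 min library, and each passed in all fits that left out 1 of the 6 libraries.

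Hsd17b6, a steroid dehydrogenase, had 603, 378 and 488 counts in refed 240 min livers, against 1470, 3335 and 1555 in refed 120 min livers (-2.03 ± 0.40, adjusted p = 0.0106). Csad, the decarboxylase of taurine synthesis, had 5055, 6217 and 5393 against 13922, 8981 and 13213 (-1.09 ± 0.19, adjusted p = 0.00434). Both genes were lower in each refed 240 min library. Frat2, an activator of Wnt signalling, fell by 1.20 on the log2 scale (adjusted p = 0.0276) and E2f8, a repressor among the E2F factors, by 1.07 (adjusted p = 0.0442). Frat2 and E2f8 each passed in 1 of the 6 fits without 1 library. The Cyp2c family, which oxidises drugs, steroids and fatty acids, was chosen after the values had been seen. Of its 13 genes tested, 3 fell and none rose (median -0.58, 8 lower and 1 higher at an unadjusted p under 0.05). Among all genes tested, 0.904% fell, and 7.21% were lower and 7.86% higher at that unadjusted p. Cyp2c69 had 153, 30 and 27 counts against 274, 243 and 526 (-2.68 ± 0.64, adjusted p = 0.029), Cyp2c38 had 1991, 828 and 1131 against 2408, 2446 and 2825 (adjusted p = 0.0284), and Cyp2c67 had 5369, 3860 and 3591 against 6604, 6623 and 6708 (-0.66 ± 0.13, adjusted p = 0.0107). In all 3 the highest refed 240 min library was replicate 1. Without replicate 2 of refed 240 min none of the 13 passed, and without replicate 1 of that group 4 did. Without replicate 3 of that group Cyp2c69 and Cyp2c38 lost the call. Reads of these near-identical Cyp2c neighbours may have been split between them. Por, the reductase that feeds electrons to all microsomal P450 enzymes, fell as well, with 14629, 14637 and 15283 against 21356, 18249 and 20328 (-0.43 ± 0.11, adjusted p = 0.0416). Por passed in 1 of the 6 fits without 1 library.

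Some autophagy genes fell. Of 46 genes of the autophagy machinery and its receptors tested, 6 fell and 0 rose, 14 were lower and 1 higher at an unadjusted p under 0.05, and the list median was -0.11; this list too was put together after the values had been seen. Of all genes tested 0.904% fell. The number of autophagy genes that fell was 3 to 6 when 1 of the 6 libraries was left out, 1 when only the groups compared were fitted, 1 without the 2 libraries with pancreas transcripts and 0 under the treatment label. Calcoco1, a receptor for ER-phagy and a transcriptional coactivator, had 554, 744 and 776 counts in refed 240 min livers, against 1529, 1308 and 1219 in refed 120 min livers (-0.98 ± 0.11, adjusted p = 5.75e-05). Fam134b, the ER-phagy receptor that shapes ER sheets, had 3106, 2370 and 3100 against 5686, 4211 and 4131 (-0.71 ± 0.13, adjusted p = 0.00698). Both sets of libraries were clearly separate. Gabarapl1, a ubiquitin-like protein of the autophagosome membrane, had 9724, 8771 and 9206 against 15067, 14429 and 11932 (-0.57 ± 0.12, adjusted p = 0.0123). The lipid transfer protein Atg2a fell by 0.38 on the log2 scale, its partner Wdr45 by 0.39 and Tbc1d14, a regulator of autophagosome formation, by 0.28 (adjusted p = 0.012, 0.0123 and 0.0264 in that order). Among other genes that fell, Ccng2, a cyclin raised in resting cells, fell by 0.63 (adjusted p = 0.0148), Rbl2, the p130 relative of the retinoblastoma protein, by 0.46 (adjusted p = 0.00724), Cbx7, a Polycomb subunit, by 0.60 (adjusted p = 0.00698) and Klhl24, a ubiquitin ligase adaptor, by 0.68 (adjusted p = 0.0191). These 4 genes were chosen after their values were seen.

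Of the 332 zinc finger genes named Zfp that were tested, a group chosen after the values had been seen, 11 fell and 1, Zfp407, rose, beside 0.904% and 0.86% of all genes. At an unadjusted p under 0.05, 56 were lower and 8 higher, where 7.21% of all genes were lower and 7.86% higher, and the median was -0.12. The sizes were small. Zfp39 had 196, 216 and 256 counts in refed 240 min livers, against 289, 352 and 304 in refed 120 min livers (-0.50 ± 0.11, adjusted p = 0.0173), and Zfp266 had 964, 909 and 1026 against 1264, 1292 and 1262 (-0.40 ± 0.09, adjusted p = 0.0191). Groups did not overlap in either. With 1 of the 6 libraries left out, 0 to 10 of the 332 fell and the median stayed between -0.15 and -0.09.

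Some genes grouped here under RIG-I-like receptors and RNA sensing rose. Of 17 tested, a list put together after the values had been seen, 4 rose and 0 fell, where 0.86% of all genes rose, 13 were higher at an unadjusted p under 0.05, and the median was 0.36; the count was 0 without replicate 1 of refed 240 min and 1 to 6 without any other of the 6 libraries. Oasl1, an oligoadenylate synthetase-like protein, had 2917, 1926 and 1983 counts in refed 240 min livers, against 1197, 1089 and 1102 in refed 120 min livers (0.98 ± 0.18, adjusted p = 0.00711). Ddx58, the RNA sensor RIG-I, had 3896, 2915 and 2946 against 2420, 2062 and 2173 (0.54 ± 0.11, adjusted p = 0.0133). Parp14, an ADP-ribosyltransferase, had 4476, 3373 and 3486 against 2582, 2886 and 2685 (0.46 ± 0.11, adjusted p = 0.027). In each the libraries of the groups were apart and replicate 1 of refed 240 min was the highest. Ddx60, a helicase that assists RIG-I, had 665, 442 and 482 against 335, 278 and 378 (0.67 ± 0.17, adjusted p = 0.0424). Its promoter is shown because it holds the interferon response motif, GAAA and after 2 further bases again GAAA, at 2 places. It is chr8:61927837-61928086 of GRCm38.p6, plus strand, with the matches in capitals, which began 53 and 19 bases before the RefSeq start.
Ddx60: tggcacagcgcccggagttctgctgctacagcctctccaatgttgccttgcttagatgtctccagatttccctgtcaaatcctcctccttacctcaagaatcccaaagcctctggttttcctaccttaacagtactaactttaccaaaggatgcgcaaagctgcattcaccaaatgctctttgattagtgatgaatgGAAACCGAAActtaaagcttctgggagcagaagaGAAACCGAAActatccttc
That motif, on either strand, was in 2.98% of all promoters, 3.31% of those of genes tested, 6 of 106 of genes that rose (5.66%) and 1 of 108 of genes that fell (0.926%). The 6 were Ddx60, Ldlrad3, Rnf121, Sec23b, Serp1 and Tnfrsf14. Ddx60 was thus the only called member of the RNA-sensing list among them. In the list of interferon-induced genes, 0 of 20 were called (5 higher and 1 lower at an unadjusted p under 0.05).

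Of 22 acute phase proteins, none was called, 8 were higher at an unadjusted p under 0.05 and the median was 0.45. Orm1, Orm2 and Orm3 rose when only the groups compared were fitted, and 6 of the 22 rose with library weights. Saa1, a serum amyloid made in inflammation, had 5864, 6324 and 23631 counts in refed 240 min livers, against 482, 1833 and 1841 in refed 120 min livers (3.02 ± 1.03, adjusted p = 0.133). Lcn2, the iron-trapping lipocalin, had 1148, 4616 and 4200 against 304, 578 and 427 (2.73 ± 0.93, adjusted p = 0.133), and Orm2, an orosomucoid, had 843, 894 and 2427 against 146, 284 and 263 (adjusted p = 0.188). All 3 genes were higher in each refed 240 min library, but the spread within groups was wide, with 1554, 7898 and 694 counts of Saa1 in caged food 240 min livers. Saa1 and the Orm genes have near-identical paralogs. None of 23 clock genes was called (3 higher and 1 lower at an unadjusted p under 0.05), among them Nr1d1 at 3683, 3959 and 2943 against 4171, 5249 and 5585 (adjusted p = 0.0921). None of 27 immediate early genes was called either (4 higher and 3 lower), with Junb at 471, 829 and 452 against 1001, 920 and 1071 (adjusted p = 0.0608). The same was true of 25 genes of cholesterol synthesis (4 higher and 1 lower) and 20 of bile acid synthesis and transport (2 and 4), where Cyp7a1, the rate-limiting enzyme of bile acid synthesis, had 8048, 5080 and 20170 against 13432, 23435 and 18429 (adjusted p = 0.199).

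Markers of cells other than hepatocytes did not pass, with 1 exception. None of the 8 Kupffer cell, 8 sinusoidal endothelium, 8 stellate cell, 6 cholangiocyte or 8 leukocyte markers was called, nor any of the markers of neutrophils, red cells, pancreas and muscle that could be tested. Kupffer cell markers summed to 16459 to 18587 in refed 240 min livers and 14384 to 22246 in refed 120 min livers. Endothelial markers summed to 18014 to 18687 in refed 240 min livers, below the 19639 to 20760 of refed 120 min livers, so these sums did not overlap. Adipocyte markers were at 2 to 5 in refed 240 min livers and 2 to 7 in refed 120 min livers. The exception was Lgals4, a galectin of gut epithelium, which fell, with 425, 479 and 412 counts against 777, 549 and 701 (-0.61 ± 0.15, adjusted p = 0.0403). Lgals4 passed in 1 of the 6 fits without 1 library, and the other gut markers tested did not pass. In bulk tissue, fewer cells of a type and less RNA per cell cannot be told apart, and the part of cell composition in these results was not tested.

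Long genes took a larger share of the genes that rose than of all genes tested, which is described here without a test and in classes chosen after the values had been seen. Genomic span here is the distance from the first to the last base of a gene in GENCODE M21. Among protein-coding genes the median span was 59.2 kb in the 131 that rose (lower quartile 22.6 kb), 26.9 kb in the 136 that fell and 24.1 kb in all 13869 tested. Of genes under 10 kb, 0.538% rose (18 of 3346). Of genes of 100 to 300 kb 2.63% rose (40 of 1522), and of genes of 300 kb or more 4.56% (16 of 351), among them Snd1 (460 kb), Prkca (410.5 kb), Ror1 (349 kb), Focad (316.4 kb) and Nbas (314.7 kb). The share that fell did not follow span, at 0.717% under 10 kb, 0.657% at 100 to 300 kb and 1.14% at 300 kb or more. Over all protein-coding genes tested, the median log2 fold change was small in every class but increased with span in both steps. From the class under 10 kb to that of 300 kb or more it was -0.022, -0.0146, 0.0163, 0.0323 and 0.0426 in the refed step. In the caged food step it was -0.034, -0.016, 0.0143, 0.0507 and 0.0646. The median span of genes that rose was 33.4 kb without refed 240 min replicate 3, when 208 protein-coding genes rose, and 47.7 to 211.2 kb without any other of the 6 libraries. The median over the genes of 300 kb or more lay 0.12 above the mean of the refed 120 min libraries (log2 scale) in refed 240 min replicate 3, 0.00133 above it in replicate 1 and 0.04 above it in replicate 2. For genes under 10 kb that median was -0.0485 in replicate 3, -0.00952 in replicate 1 and -0.0104 in replicate 2. The part of refed 240 min replicate 3 in the pattern is given by these values, and the cause of the pattern was not tested.

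Shroom3, a regulator of apical constriction with a span of 281.9 kb, had 984, 966 and 843 counts in refed 240 min livers, against 613, 413 and 428 in refed 120 min livers (0.96 ± 0.15, adjusted p = 0.002). Focad, a focal adhesion protein, had 671, 650 and 681 against 494, 408 and 237 (0.88 ± 0.16, adjusted p = 0.0057). Ptk2, the focal adhesion kinase, had 1638, 1695 and 1658 against 1315, 1258 and 1377 (0.34 ± 0.06, adjusted p = 0.00555). None of these groups overlapped, and the 3 refed 240 min libraries of Ptk2 and Focad were close together. Ror1, a receptor for Wnt5a, had 237, 247 and 295 against 125, 142 and 139 (0.93 ± 0.17, adjusted p = 0.00689).

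**Figure D4:**
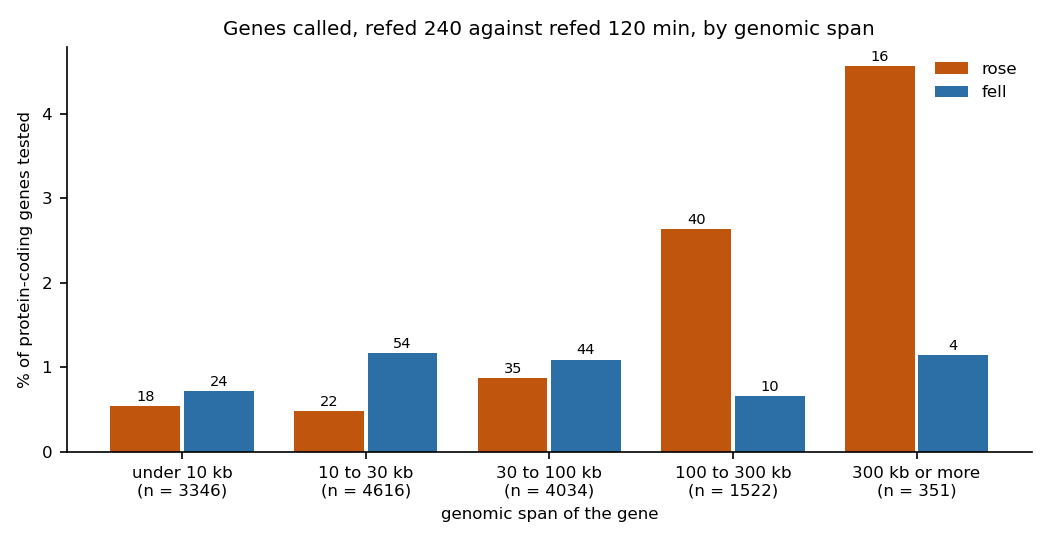
Share of the protein-coding genes tested that rose (orange) or fell (blue) between refed 120 and refed 240 min, in 5 classes of genomic span; bars start at 0, the number above a bar is the count of genes and n the genes tested in the class. The share that rose is 0.538% under 10 kb and 4.56% at 300 kb or more, while the share that fell stays between 0.657% and 1.17%.

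Whether these changes came with eating was asked with the caged food libraries, which share no library with the refed step and cover the same interval. The caged food step from 120 to 240 min had 39 genes called (0.245%; 19 rose and 20 fell), and it held 6 to 34 when 1 of its 6 libraries was left out. Of these, 4 were also called in the refed step, which is 1.42% of the refed calls and 10.3% of the caged food calls. Usp28, Sh3pxd2a and Lingo4 had the same direction in both steps, and Ahr, the aryl hydrocarbon receptor, had opposite ones. The median of the caged food step was 0.01 over the 137 genes that rose with refeeding and -0.05 over the 144 that fell. Caged food 240 min replicates 2 and 3 had an estimated 31.2 and 25.5 M reads. The part of depth in the number of genes called was not tested.

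The difference between the steps passed the test in 80 genes (0.502%), 42 with a higher and 38 with a lower refed step. Of these 80, 48 were called in the refed step, 13 in the caged food step, 1 in both and 20 in neither. The count was 20 to 148 when 1 of the 12 libraries was left out, the highest being without refed 240 min replicate 3 and the lowest without refed 240 min replicate 1. It was 3 with the conflicting libraries grouped by the treatment label. Among the genes named, the differences of Ablim1, Ahr, B3galt1, Calcoco1, Fbxo32, Nbas, Nim1k, Tmtc2, Tox and Wnk4 passed in each of the 12 fits without 1 library.

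Cyp26a1 had 315, 291 and 280 counts in caged food 240 min livers and 346, 551 and 321 in caged food 120 min livers, and its difference of steps was 2.07 ± 0.43 (adjusted p = 0.0307), which passed in 4 of the 12 fits without 1 library (highest adjusted p = 0.0993). Nbas had 1269, 1309 and 1259 counts in caged food 240 min livers, against 1306, 1422 and 1228 in caged food 120 min livers, and differed by 1.01 ± 0.16 (adjusted p = 0.00762). Oasl1 differed by 1.27 ± 0.26 (adjusted p = 0.0307) and Ddx58 by 0.73 ± 0.16 (adjusted p = 0.0395), each passing in 5 of those 12 fits (highest adjusted p = 0.108 and 0.136). Fasn, which was at 3010, 2773 and 2842 in caged food 240 min livers and 3194, 3506 and 3019 in caged food 120 min livers, differed by 0.77 ± 0.17 (adjusted p = 0.0418). This difference passed in 1 of the 12 fits (highest adjusted p = 0.124), missed the threshold under quantile normalization, and changed sign under the treatment label. Prkca, a protein kinase C, had 812, 936 and 635 counts in refed 240 min livers, against 479, 545 and 490 in refed 120 min livers, and caged food 240 min livers had 522, 526 and 601 against 717, 903 and 631 in caged food 120 min livers (difference 1.07 ± 0.21, adjusted p = 0.0214, passing in 7 of the 12 fits). Cyp26b1, by comparison, had 958, 824 and 1045 counts in caged food 240 min livers, as high as in refed 240 min livers, and its difference of steps did not pass (1.73 ± 0.71, adjusted p = 0.294).

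In 2 genes named for a large difference the caged food livers moved most. Tfrc, the transferrin receptor that takes up iron, had 1013, 1254 and 1186 counts in caged food 240 min livers and 2044, 3393 and 2758 in caged food 120 min livers. In refed livers it did not pass, at 6826, 4577 and 5265 against 4288, 3275 and 4415 (0.47 ± 0.23, adjusted p = 0.333), and the difference was 1.69 ± 0.32 (adjusted p = 0.0195), passing in 8 of the 12 fits without 1 library. B3galt1, a galactosyltransferase, had 1041, 1208 and 1119 against 3211, 1646 and 2198 with caged food and 1365, 1952 and 2248 against 1215, 860 and 1194 in refed livers (difference 1.77 ± 0.32, adjusted p = 0.0136).

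Among genes with a lower refed step, Wnk4 had 157, 136 and 142 counts in caged food 240 min livers and 83, 113 and 121 in caged food 120 min livers, opposite to its fall with refeeding (difference -1.80 ± 0.30, adjusted p = 0.00762). Fbxo32 had 300, 324 and 346 against 277, 253 and 275 with caged food (difference -1.62 ± 0.30, adjusted p = 0.0152). Tmtc2 differed by -1.59 ± 0.24 (adjusted p = 0.00762) and Calcoco1 by -0.98 ± 0.16 (adjusted p = 0.00762). Nim1k, a kinase related to AMPK, had 60, 52 and 98 counts in refed 240 min livers, against 120, 139 and 111 in refed 120 min livers, while caged food livers had 230, 183 and 189 against 128, 108 and 144 (difference -1.52 ± 0.26, adjusted p = 0.00942). Wipf3, an actin regulator, fell in refed livers by 0.79 on the log2 scale (adjusted p = 0.0494) and differed by -1.31 ± 0.29 (adjusted p = 0.0413), passing in 2 of the 12 fits without 1 library. Ahr had 2862, 3218 and 3148 counts in refed 240 min livers, against 4582, 3987 and 4031 in refed 120 min livers, and 2520, 2862 and 2214 against 1743, 1848 and 1740 with caged food (difference -0.95 ± 0.15, adjusted p = 0.00762). The separation of its libraries was complete in both steps, in opposite directions.

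**Figure D5:**
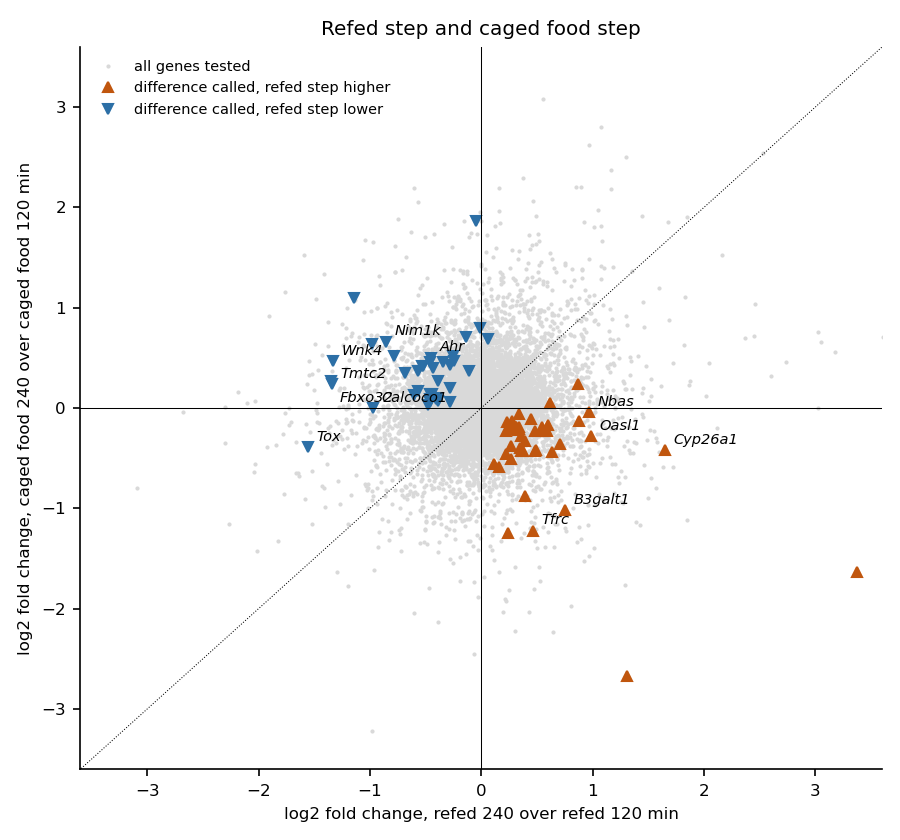
Log2 fold change of the refed step (240 over 120 min, horizontal) against that of the caged food step (vertical) for all genes tested; triangles are the 80 genes whose difference between the steps passed the test, and the dotted line marks equal steps. Genes such as Cyp26a1, Nbas and Calcoco1 lie near the horizontal axis, Tfrc and B3galt1 lie low because they fell with caged food, and 2 genes lie outside the axes.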

How the data were processed

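The deposited table holds 45706 genes and a score for each of 27 libraries, that is, read counts that the authors had normalised: they are called normalised per the labels, and the values are whole numbers in which 1 read is worth a different amount in each library. How they were scaled is not given in the sources used here. Per the submitters' processing notes, reads were aligned to mm10 (GRCm38) with STAR 2.4.0a and counted with featureCounts 1.4.5-p1. Since the values are not raw counts, no count model was used. Depth was estimated from the spacing of low values.

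Values were taken as log2(value + 1). limma 3.58.1 (R 4.3.3) with a mean-variance trend was fitted to 9 group means over all 27 libraries, with Benjamini-Hochberg adjustment over the 15932 genes tested. The contrasts were refed 240 minus refed 120 min, caged food 240 minus caged food 120 min, and their difference. Pairs of values in the text are refed 240 min against refed 120 min unless named otherwise, and values with ± are log2 fold changes with SE. The test was also run on simulated counts with the same spread for all genes and no differences between libraries of a group. That run cannot show how far calls in these data depend on single libraries.

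The genes named were the 10 largest rises and falls among genes called without overlap and averaging 50 or more in the higher group, the 5 largest differences each way, up to 4 members of lowest p per list described, a panel of 44 genes, and genes said to be chosen after their values. Members, lists and panel were chosen with earlier results of these data known. Coordinates are from GENCODE M21 (45143 identifiers matched). Promoters are from RefSeq GRCm38.p6 (11172 of the genes tested had one). The alternatives tried were a fit of the compared groups alone, quantile scaling, library weights, the replicate number as a block, log2(value + 5), all genes unfiltered, libraries left out, and the treatment label for grouping. Python 3.11.15, numpy 2.4.6, pandas 2.3.3 and matplotlib 3.10.9 were used.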

Additional observations from a re-analysis of the deposited data

Results flagged for a closer look

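The difference between the refed and the caged food step passed the test in 80 genes, and those of them that the text names are given here with that difference on the log2 scale. Among genes with a higher refed step it was 5.01 in Has1, 2.07 in Cyp26a1, 1.77 in B3galt1, 1.69 in Tfrc, 1.27 in Oasl1, 1.07 in Prkca and 1.07 in Tuba1c. It was 1.01 in Nbas, 1.0 in Focad, 0.82 in Ablim1, 0.77 in Fasn, 0.73 in Ddx58, 0.63 in Snd1, 0.55 in Trappc4, 0.54 in Rptor and 0.40 in Ptk2. Among genes with a lower refed step it was -1.80 in Wnk4, -1.62 in Fbxo32, -1.59 in Tmtc2, -1.52 in Nim1k, -1.31 in Wipf3, -1.16 in Tox and -1.04 in Zfp759. It was -0.98 in Calcoco1, -0.95 in Ahr, -0.73 in Cbx7, -0.55 in Rbl2 and -0.48 in Tbc1d14. The value of Has1 comes from counts near 0 and depends on the pseudocount. Without refed 240 min replicate 1 the difference passed in 20 genes. No group of this design has 4 or more libraries, so single libraries were not tested as far from their group.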

How the results depend on the processing

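Against 281 genes called in the refed step, 39 in the caged food step and 80 in their difference, the fit of only the groups compared called 60, 11 and 26, and library weights called 1244, 188 and 565. With the 2 conflicting libraries grouped by the treatment label the counts were 16, 18 and 3. Leaving both out gave 314, 6 and 88, of which 199 in the refed step were among the 281. Leaving out the 2 libraries with pancreas transcripts gave 46 in the refed step and 12 in the difference. With 1 library left out the counts ran from 92 to 355, from 6 to 34 and from 20 to 148. The share of refed calls that rose was 48.8%, and 34.0% without refed 120 min replicate 3, 61.2% without replicate 1 of that group and 60.3% without refed 240 min replicate 3. The replicate block gave 265, 24 and 61; deviations of same-numbered refed libraries correlated at -0.00611, -0.0894 and 0.0355, so the numbers were not taken as pairs. Quantile normalization (305 in the refed step), a pseudocount of 5 (278) and no filter (206) stayed within 1.5 times of the 281. Of 137 values followed for single genes, 7 changed sign, all under the treatment label: the refed step of Tfrc (-0.32), Hspa5 (-0.11) and Sdf2l1 (-0.26), and the difference of steps of Fasn (-0.25), Calcoco1 (0.20), Tuba1c (-0.0485) and Cbx7 (0.27). Fits without libraries hold fewer samples, and for the others the cause was not tested. Among the refed libraries compared, refed 240 min replicate 3 had the fewest estimated reads, 28.9 M, which limits its low genes most. Caged food 240 min replicates 2 and 3 had an estimated 31.2 and 25.5 M, the latter the fewest of all 27 libraries. The caged food step and the difference rest on both.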

Other observations

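A few genes outside the groups above, chosen after their values were seen, are given as values. Ugdh, which makes the UDP-glucuronic acid used for glucuronidation and for sugar polymers of the matrix, had 10621, 10693 and 8827 counts in refed 240 min livers, against 7360, 5463 and 6481 in refed 120 min livers (0.65 ± 0.15, limma adjusted p = 0.0286). Ext1, which extends heparan sulfate from that sugar, had 2536, 2331 and 2323 against 1987, 2016 and 1731 (adjusted p = 0.0228). Has1, a hyaluronan synthase that uses it, was near 0, with 13, 19 and 7 counts in refed 240 min livers and 0, 1 and 0 in refed 120 min livers, and passed as well (adjusted p = 0.0171). All 3 genes were higher in each refed 240 min library, and in the 6 fits without 1 library Ext1 passed in 3 and Ugdh and Has1 in 2 each.

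Srsf7, a splicing factor rich in serine and arginine, had 1499, 1427 and 1228 counts in refed 240 min livers, against 1850, 1972 and 1750 in refed 120 min livers (-0.43 on the log2 scale, limma adjusted p = 0.0452). Clk1, a kinase of such factors, had 2526, 2525 and 2468 against 3191, 2816 and 3058 (adjusted p = 0.0424). Rbm39 fell by 0.22 (adjusted p = 0.045) and Prpf39 by 0.28 (adjusted p = 0.0463). The libraries of the groups did not overlap in Srsf7 and Clk1. These 4 calls were picked because they passed and not from a list of such genes, and in the 6 fits without 1 library Srsf7 passed in 0 and Clk1, Rbm39 and Prpf39 in 1 each.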
